A study of Homo sapiens with 12 samples.

Results

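Transcripts of 10 genes that report on ERK signaling were described in WM-266-4 melanoma cells that expressed TYRO3 or a control plasmid: the feedback inhibitors DUSP4, DUSP6, SPRY2, SPRY4 and SPRED1, and the output genes ETV4, ETV5, EGR1, FOSL1 and PHLDA1. They were chosen by name as a transcriptional readout of the pathway, with earlier results of these data known. All 10 of the 10 were measured, among 35579 genes with a listed transcript. Each of the 10 also passed the filter on low counts, which left 15098 genes to be tested. FOSL1 rose 2.13-fold with TYRO3 and was called. This call was lost when any single control library was left out, without certain TYRO3 libraries of experiment 1, and with no batch term. Without the control library of experiment 1, which leaves that experiment with no control, 1 of 15328 tested genes was called, against 500 of 15098 with it. EGR1, DUSP6 and SPRY2 were also higher than the control of the same experiment in 9 of 9 libraries. Their fitted folds were 2.24, 1.30 and 1.21, and none was called in the main fit, which has a batch term for experiment 1 alone. EGR1 was called with a term for each experiment, and with this batch term by DESeq2 or without the filter on low counts. DUSP6 and SPRY2 were not called in any of these fits. The other 6 genes had fitted folds between 0.908 and 1.04.

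In the ERK pathway, receptor tyrosine kinases recruit adaptors that load RAS with GTP, and RAS starts a cascade of the kinases RAF, MEK and ERK. ERK enters the nucleus and activates transcription through ternary complex factors, which bind together with SRF, and through ETS factors. Among the genes it induces are its own inhibitors: dual-specificity phosphatases that dephosphorylate ERK, and Sprouty and SPRED proteins that act at the level of RAS and RAF. Melanomas often carry mutated BRAF, which keeps this cascade active, and levels of DUSP6, SPRY4 and ETV5 are commonly read as a measure of its output.

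TYRO3 is a receptor tyrosine kinase of the TAM family that can be cut by ADAM proteases and then by gamma-secretase, which releases its intracellular domain. The study asked which signals depend on this cleavage. All cells carried a stable lentiviral knock-down of TYRO3, were kept under puromycin, were transfected with a pEZY-myc-his plasmid and were starved of serum overnight. The plasmid encoded GFP (control, 3 libraries), wild-type TYRO3 (WT, 3), TYRO3 ΔGS with the mutation I449A in the gamma-secretase site (3) or TYRO3 ΔADAM with the mutations P408A, L409P and G419P in predicted ADAM sites (3). The study's methods describe the control as a vector control, while the labels name GFP. Each of 3 experiments held 1 library of each group, so the 3 TYRO3 libraries of an experiment share 1 control library. Nothing states whether the experiments used separately derived knock-down lines, and p-values measure the spread between these transfections of 1 cell line.

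The total of estimated counts ranged from 4008293 in the GFP library of experiment 1 to 38184838 in that of experiment 2, a 9.53-fold range, and the other 10 lay between 18365999 and 34412887. Mitochondrial mRNA made up 4.39% to 8.46% of the counts, with the highest share in the GFP library of experiment 1. TYRO3 itself was between 47.3 and 56.6 CPM (counts scaled to a common library size after TMM) in the GFP libraries and between 1181 and 3694 CPM in the others, which separates GFP from TYRO3 libraries. WT, ΔGS and ΔADAM differ by point mutations that counts per gene do not read, and their TYRO3 levels overlapped, so these labels were not checked against each other. In experiment 1 the TYRO3 libraries held 3064 to 3694 CPM of TYRO3 and in experiments 2 and 3 they held 1181 to 1791 CPM. The melanocyte lineage marker SOX10 was at 213 to 388 TPM (a transcript level scaled by length and library size) in every library and PMEL at 709 to 1256 TPM. Of 11 markers of epithelial, immune and endothelial cells, 8 stayed at or below 1 TPM and KRT5 was at 0 in every library. Their summed level, which is mostly CD68 at 31.7 to 52.6 TPM, was 42.8 to 45.6 TPM in GFP, 43.3 to 52.3 in WT, 33.9 to 56.4 in ΔGS and 38.9 to 52.9 in ΔADAM.

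The 10 genes spanned a wide range of levels in the control cells. On the scale of TPM, which divides by transcript length and so allows genes to be compared, ETV4 was the highest at 143 ± 19.9 (SD, n = 3), followed by DUSP4 at 124 ± 24.4 and DUSP6 at 87.3 ± 15.1. ETV5 was at 66.9 ± 4.02 TPM, PHLDA1 at 64.9 ± 15.3, FOSL1 at 42.6 ± 3.92 and SPRED1 at 39.7 ± 3.18. SPRY4 was at 21.9 ± 8.02 TPM, SPRY2 at 20.1 ± 4.00 and EGR1 at 2.07 ± 1.01. The order of ETV4 and DUSP4, of ETV5 and PHLDA1, of FOSL1 and SPRED1, and of SPRY4 and SPRY2 was not the same in all 3 GFP libraries, whereas every other neighbouring pair was. EGR1 was thus the only gene of the 10 in the lower range of the tested genes, at the 19.8th percentile of their mean TPM in GFP, and ETV4 was at the 92.8th.

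Within experiments, 4 of the 10 genes, FOSL1, EGR1, DUSP6 and SPRY2, were higher in the TYRO3 library than in its GFP library in all 9 comparisons. Over all tested genes, 12.7% were higher in all 9. None of the 10 was lower in all 9, against 13.8% of the tested genes. The 9 comparisons use only 3 GFP libraries. The 10 genes were chosen with earlier results of these data known, so their counts beside these shares are descriptions. FOSL1 was the only member whose 9 TYRO3 libraries all lay above all 3 GFP libraries, which held for 5.03% of the tested genes, and no member lay below in this way, against 5.21%.

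**Figure D1:**
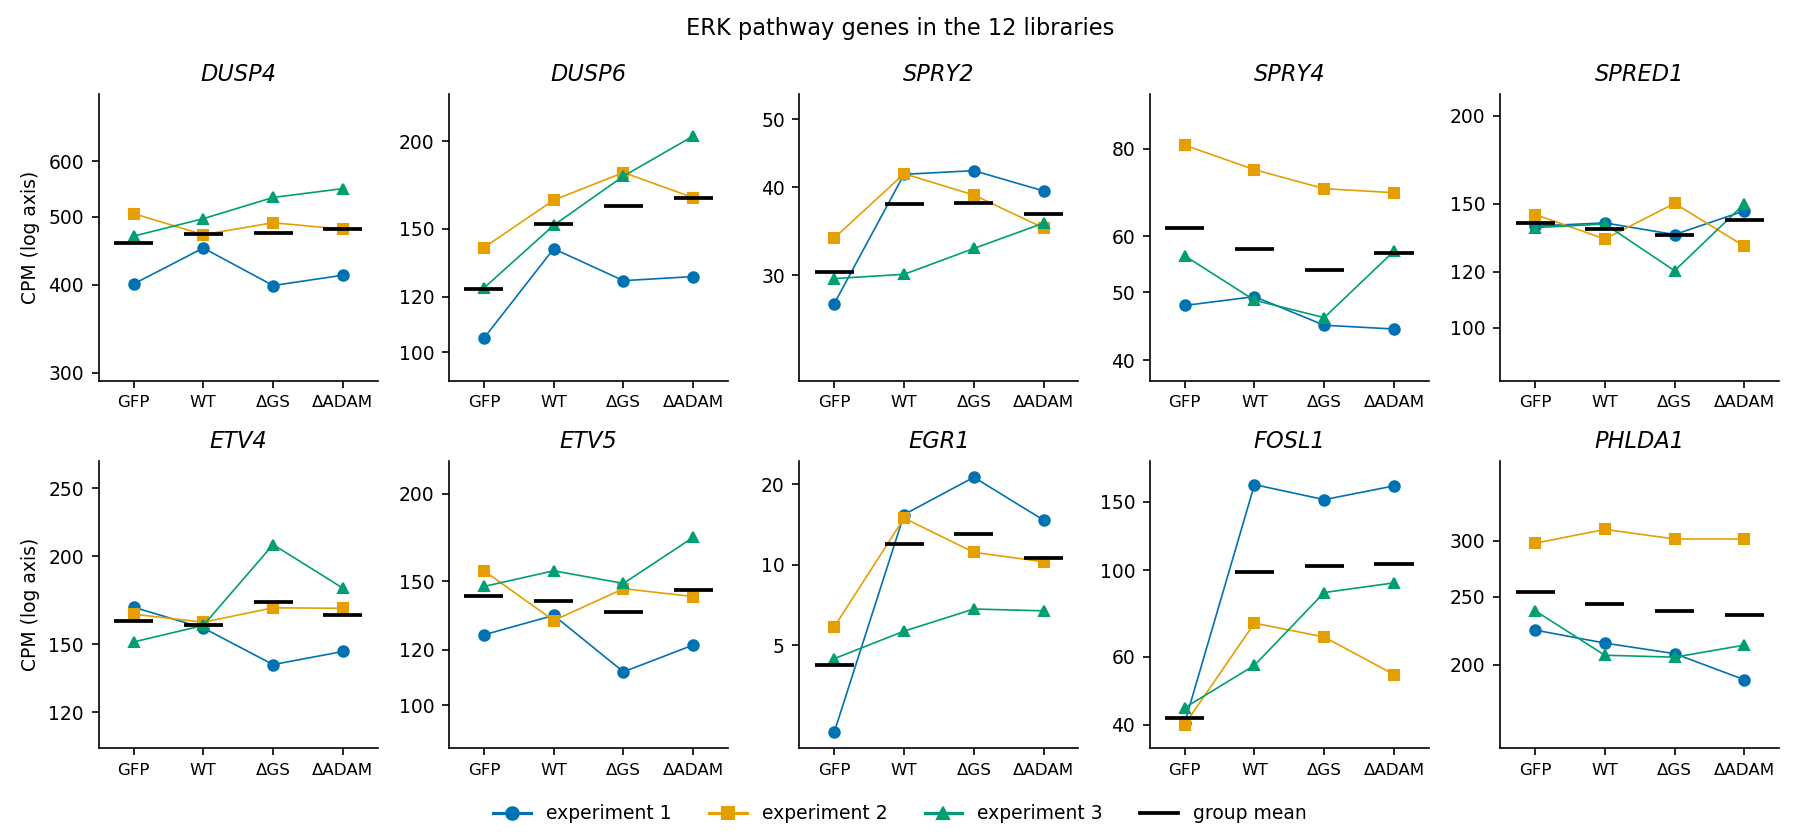
CPM of each of the 10 genes on a log axis in the GFP, WT, ΔGS and ΔADAM libraries, with 1 colored line and marker per experiment and black bars at the mean of each group (n = 3). FOSL1 sits at 40.1 to 44.3 CPM in GFP and at 53.9 to 166 CPM in the TYRO3 libraries, while the lines of SPRED1 and DUSP4 are nearly flat.

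FOSL1 encodes FRA-1, a partner of JUN proteins in the AP-1 transcription factor whose gene and protein are both induced by ERK. The gene lies on chromosome 11 from 65892049 to 65900573 on the minus strand (GRCh38, GENCODE 29). In the GFP libraries of experiments 1, 2 and 3 its level was 40.5, 40.1 and 44.3 CPM. With WT TYRO3 it was 166, 73.1 and 56.9 CPM, with ΔGS 152, 67.3 and 87.6 CPM, and with ΔADAM 165, 53.9 and 92.8 CPM. The control libraries were nearly alike, and the 3 TYRO3 libraries of experiment 1 were the highest of the 12.

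Against GFP, the mean of the 3 TYRO3 groups was 2.13-fold higher (95% confidence interval 1.48 to 3.06, log2 fold change 1.09 ± 0.24 SE, adjusted p = 0.0277, edgeR). FOSL1 was the only member called in this comparison, where a gene is called at an adjusted p of at most 0.05 and a fold over 1.5. Over all tested genes, 3.31% were called. With a term for each experiment in the model, which compares libraries within experiments, 2 of the 10 members were called (FOSL1, adjusted p = 0.0113, and EGR1), against 5.68% of all genes. The call of FOSL1 was lost without the GFP library of experiment 1 (log2 fold change 0.78, adjusted p = 0.171), without that of experiment 2 (1.19, 0.0653) or 3 (1.27, 0.0549), and without the ΔGS (1.09, 0.0527) or ΔADAM (1.08, 0.0562) library of experiment 1. In experiments 2 and 3 alone it was 0.78 with an adjusted p of 0.380, or 0.0725 with a term for each of these experiments. Over all genes 1 was called without the GFP library of experiment 1 and 1 in experiments 2 and 3 alone, against 500 in all 12 libraries. Leaving out that GFP library removes the only control of experiment 1. Its fit then compares TYRO3 with GFP in experiments 2 and 3 only, so these 2 fits are not separate checks. The main FOSL1 transcript held 64.4% to 74.6% of the gene's counts in the 12 libraries.

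EGR1 encodes a zinc finger transcription factor and is an immediate early gene, transcribed within minutes of ERK activation by SRF and ternary complex factors at CArG boxes. It lies on chromosome 5 from 138465490 to 138469315 on the plus strand. The 250 bases before its RefSeq start site (GRCh38.p14, plus strand) are shown because they hold CArG boxes, with the matches in capitals. Bases further upstream were not searched, so the window need not hold all such elements of the gene.
EGR1 upstream, chr5:138465229-138465478: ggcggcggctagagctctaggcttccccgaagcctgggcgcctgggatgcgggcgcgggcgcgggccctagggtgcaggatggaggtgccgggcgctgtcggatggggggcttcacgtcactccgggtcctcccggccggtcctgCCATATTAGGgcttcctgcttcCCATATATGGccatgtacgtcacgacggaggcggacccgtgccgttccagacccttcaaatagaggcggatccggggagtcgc

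The CArG box was searched on both strands in the same window of 35116 promoters. EGR1 had 2 matches, whose first bases lie 105 and 83 bases before the start site, and 1.16% of all promoters had at least 1. The promoter table holds 6 of the 10 members (EGR1, DUSP6, SPRY2, SPRY4, SPRED1 and PHLDA1), and none of the other 5 had a match. The AP-1 motif TGANTCA (6.57% of all promoters) and the CRE motif TGACGTCA (1.65%) were in none of the 6. Of ETS sites only the hexamer CCGGAA (14.5%) was searched. It was found once each in the windows of PHLDA1 and of 1 of the 3 SPRY2 start sites. The shorter ETS core GGAA was not searched, so other ETS sites may lie in these windows, that of EGR1 included. These matches describe the sequence and not binding.

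The level of EGR1 was 2.37, 5.85 and 4.45 CPM in the GFP libraries of experiments 1, 2 and 3. It was 15.4, 14.9 and 5.64 CPM with WT, 21.2, 11.1 and 6.82 CPM with ΔGS, and 14.7, 10.2 and 6.71 CPM with ΔADAM. Each TYRO3 library was above its own control, but the WT library of experiment 3 was below the GFP library of experiment 2, so the groups overlapped. The value in the GFP library of experiment 1 rests on 9 counts (2.37 CPM, 95% exact Poisson interval 1.08 to 4.49 CPM, which covers counting error only), and the other GFP libraries had 217 and 88. The mean of the TYRO3 groups was 2.24-fold that of GFP (1.26 to 3.99, log2 fold change 1.17 ± 0.38, adjusted p = 0.0866) and was not called. With a term for each experiment EGR1 was called at 2.16-fold (1.42 to 3.27, adjusted p = 0.0209). With the batch term it was called by DESeq2, without the filter on low counts, and without the ΔGS library of experiment 3. Without the GFP library of experiment 1 its log2 fold change was 0.84 (adjusted p = 0.346, batch term only), and in experiments 2 and 3 alone 0.82 with an adjusted p of 0.0771 with a term for each.

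DUSP6 encodes a cytoplasmic phosphatase that is selective for ERK. It lies on chromosome 12 from 89347232 to 89353271 on the minus strand. Its level in the GFP libraries of experiments 1, 2 and 3 was 105, 141 and 123.4 CPM. It was 140.4, 165 and 152 CPM with WT, 126, 180.4 and 178 CPM with ΔGS, and 128, 166 and 203 CPM with ΔADAM. Experiment 1 was lowest in every group, and the TYRO3 libraries exceeded their own control by 1.17-fold to 1.65-fold.

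The mean of the TYRO3 groups was 1.30-fold that of GFP for DUSP6 (1.13 to 1.49, log2 fold change 0.38 ± 0.09, adjusted p = 0.0388). The adjusted p passed and the fold was under 1.5, so the gene was not called, and the same held with a term for each experiment (1.30-fold, adjusted p = 0.0191). With 1 library left out, the log2 fold change was 0.32 to 0.42 and the adjusted p 0.0299 to 0.191. On counts made from TPM, which take transcript lengths into account, it was 0.29 (adjusted p = 0.124). Its main transcript held 48.1% of the gene's counts in the GFP library of experiment 1 and 55.8% to 66.5% in the other 11.

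SPRY2 encodes a Sprouty protein that restrains RAS and RAF activation downstream of receptors. It lies on chromosome 13 from 80335976 to 80340951 on the minus strand. In the GFP libraries of experiments 1, 2 and 3 it was at 27.35, 33.9 and 29.7 CPM, with WT at 41.7, 41.8 and 30.1, with ΔGS at 42.2, 39.0 and 32.8, and with ΔADAM at 39.5, 35.0 and 35.6. The differences were largest in experiment 1, and in experiment 3 the WT library was 1.01-fold its control. The mean of the TYRO3 groups was 1.21-fold that of GFP (1.01 to 1.46, log2 fold change 0.28 ± 0.12), which did not pass (adjusted p = 0.180, or 0.0842 with a term for each experiment).

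**Figure D2:**
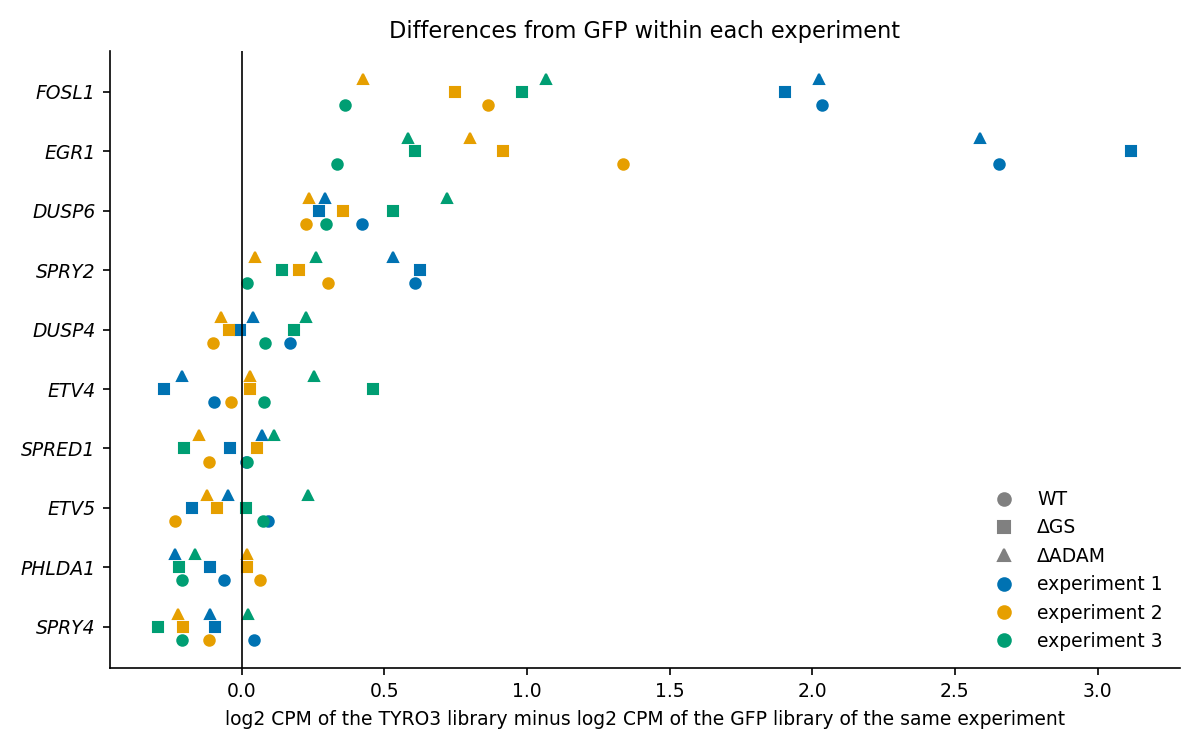
Difference in log2 CPM between each TYRO3 library and the GFP library of the same experiment, for the 10 genes ordered by their median difference. Marker shapes give WT, ΔGS and ΔADAM, colors give the experiment. All 9 points of FOSL1, EGR1, DUSP6 and SPRY2 lie right of 0, and for FOSL1 and EGR1 the 3 points of experiment 1 lie apart from the other 6.

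The other 3 feedback inhibitors lay on both sides of the control. DUSP4, a nuclear phosphatase of ERK, was at 401 to 505 CPM in GFP and at 399 to 548 CPM in the TYRO3 libraries, 5 of 9 above their control. SPRY4, a second Sprouty protein, differed more between experiments than between groups, with 80.9 CPM in the GFP library of experiment 2 and 47.9 and 56.3 CPM in those of experiments 1 and 3. It was lower than its control in 7 of 9 libraries, at 0.817-fold to 1.03-fold (fitted fold 0.908, 0.708 to 1.17). SPRED1, which brings neurofibromin to RAS, was at 139 to 145 CPM in GFP and at 120.4 to 150.1 CPM in the TYRO3 libraries. Their adjusted p-values for the mean of the TYRO3 groups were 0.724, 0.662 and 0.900.

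The PEA3 family factors ETV4 and ETV5, which act downstream of ERK, lay on both sides of the control, with 5 and 4 of 9 libraries above it. ETV4 was at 151 to 169 CPM in GFP and at 140.4 to 208 CPM in the TYRO3 libraries, with the highest value in ΔGS of experiment 3. ETV5 was at 126 to 155 CPM in GFP and at 112 to 173 CPM in the TYRO3 libraries. The fitted folds of the mean of the TYRO3 groups were 1.02 (0.877 to 1.19) for ETV4 and 0.984 (0.862 to 1.12) for ETV5. By gene span, ETV4 overlaps DHX8 on the other strand and ETV5 overlaps DGKG on the same strand. Shared exons were not looked for, and whether these overlaps affect the counts of ETV4 or ETV5 was not tested. In the shallow GFP library of experiment 1 the estimate gave the second ETV4 transcript 0.00107% of the gene's counts, against 16.8% to 42.9% elsewhere, which the sum over transcripts does not see.

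PHLDA1, a pleckstrin homology domain protein that is induced by ERK and by several stresses, was at 224 to 298 CPM in GFP and at 190.4 to 312 CPM in the TYRO3 libraries. It was lower than its control in 6 of 9 libraries, and its fitted fold was 0.941 (0.743 to 1.19, adjusted p = 0.792). For 8 of the 10 genes, all but FOSL1 and EGR1, the 95% interval of the fold lay within 1.5-fold of the control in either direction. The median log2 fold change of the 10 was 0.04, and that of all tested genes was -0.00184.

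**Figure D3:**
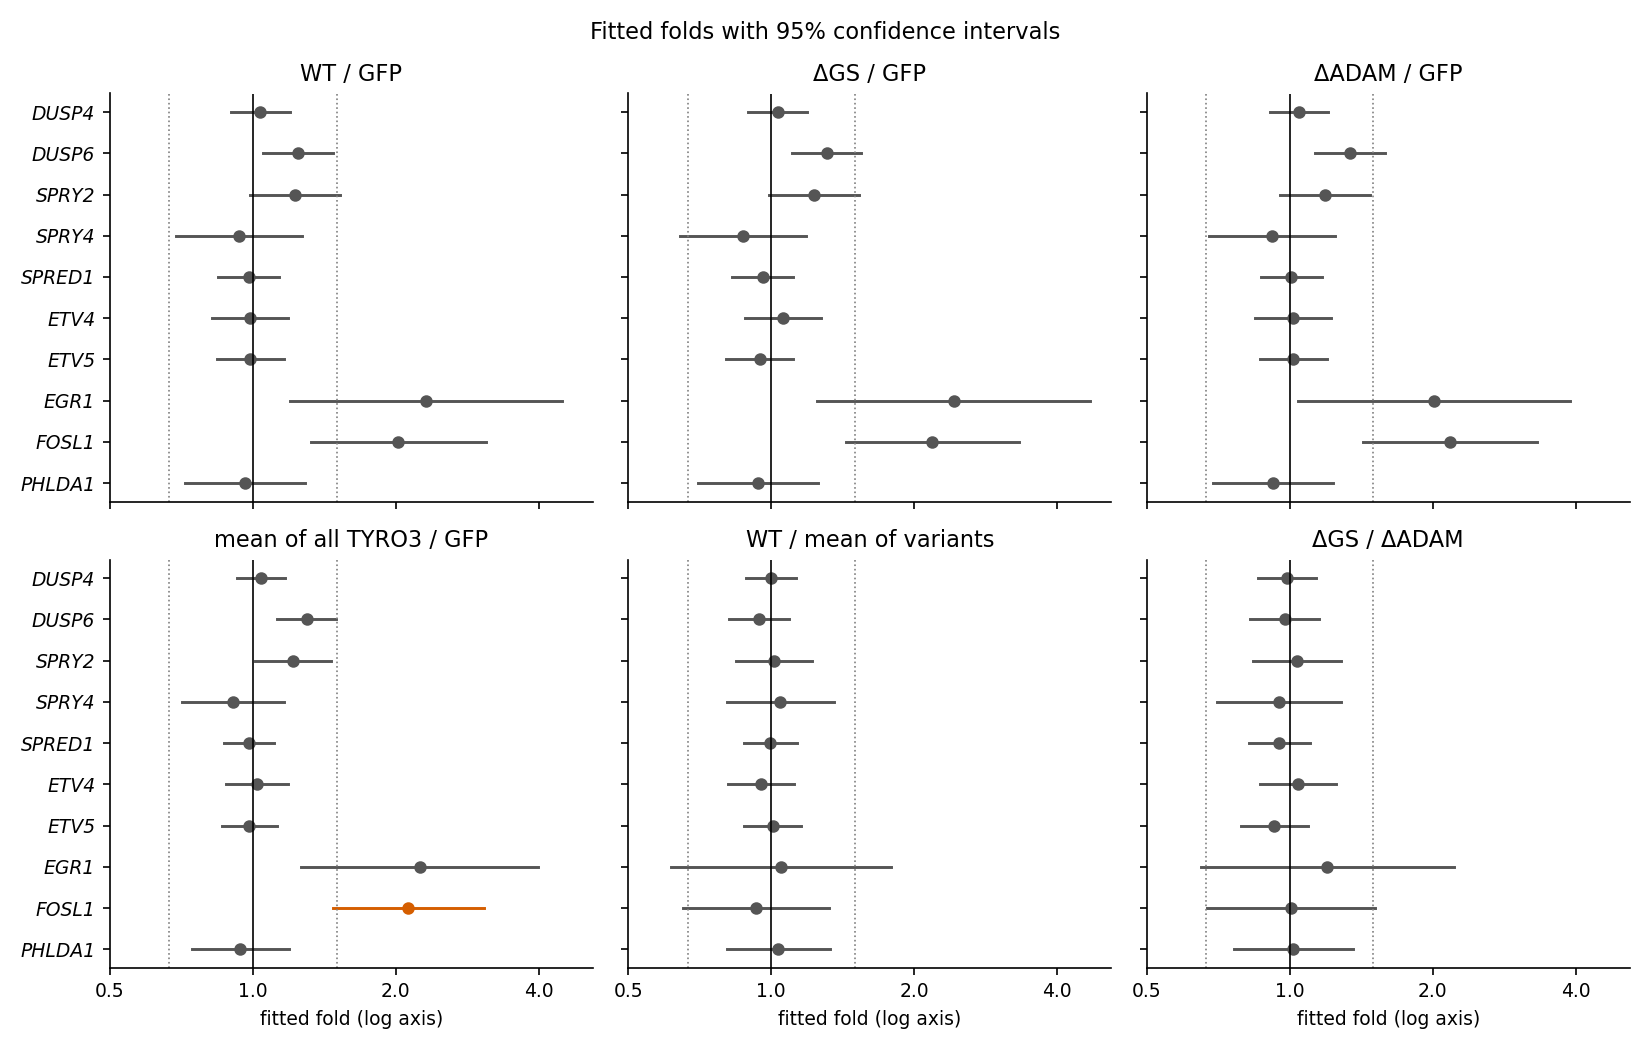
Fitted folds of the 10 genes with 95% confidence intervals on a log axis, for each TYRO3 group and their mean against GFP, for WT against the mean of both variants, and for ΔGS against ΔADAM. The orange point is the gene called, FOSL1 at 2.13-fold, dotted lines mark 1.5-fold either way, and the intervals of the comparisons between TYRO3 forms all include 1.

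Each TYRO3 group was also compared with GFP by itself, and these comparisons share the GFP libraries. In the model with the batch term 0 of the 10 genes were called in any of them. Over all tested genes 0.0397% were called for WT, 0.457% for ΔGS and 1.11% for ΔADAM. At an unadjusted p under 0.05 the 3 comparisons held 2301, 2895 and 3087 genes, and DESeq2 called 375, 607 and 672. The fold of FOSL1 was 2.02 for WT (adjusted p = 0.141), 2.18 for ΔGS (0.0729) and 2.17 for ΔADAM (0.0646). EGR1 was at 2.32-fold (0.219), 2.42-fold (0.149) and 2.01-fold (0.215). DUSP6 was at 1.25-fold (0.212), 1.31-fold (0.101) and 1.34-fold (0.0731).

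With a term for each experiment, FOSL1 was called for ΔGS (adjusted p = 0.0274) and ΔADAM (0.0278) and EGR1 for ΔGS (0.0360). In WT neither was called (0.0571 for FOSL1 and 0.0722 for EGR1), and EGR1 was not called for ΔADAM (0.0700). DUSP6 passed the adjusted p for ΔGS (0.0483) and ΔADAM (0.0341) at folds under 1.5. In this model 2.35% of all genes were called for WT, 4.68% for ΔGS and 5.2% for ΔADAM. DESeq2 with the batch term called both FOSL1 and EGR1 in WT and in ΔGS, and FOSL1 in ΔADAM.

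A call in a variant and none in WT does not show that they differ, so the TYRO3 forms were compared with each other. Between WT and the mean of ΔGS and ΔADAM, and between ΔGS and ΔADAM, 0 of the 10 genes and 0.0% of all genes were called with the batch term. With a term for each experiment it was again 0.0% in both comparisons. At an unadjusted p under 0.05 there were 118 and 119 of 15098 genes with the batch term, and 237 and 216 with a term for each experiment. These are fewer than the share of 0.05 that evenly spread p-values would give. The p-values thus ran high, and 0 calls do not show that the forms are alike. DESeq2 called 1 gene in each comparison. For FOSL1, WT was 0.929-fold the mean of the variants (0.651 to 1.33) and ΔGS was 1.005-fold ΔADAM (0.669 to 1.51). For EGR1 these folds were 1.05 (0.615 to 1.79) and 1.20 (0.652 to 2.21), and for DUSP6 0.942 (0.815 to 1.09) and 0.976 (0.826 to 1.153). The intervals of EGR1 and FOSL1 leave room for differences of over 1.5-fold, and those of the other 8 genes do not in either comparison.

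The size of the difference from GFP varied between experiments. FOSL1 in TYRO3 libraries was 3.97-fold that of GFP in experiment 1 and 1.70-fold in experiments 2 and 3 together. EGR1 was at 7.20-fold and 1.75-fold, and SPRY2 at 1.505-fold and 1.12-fold. DUSP6 had 1.26-fold and 1.32-fold. These 3 differences, of FOSL1, EGR1 and SPRY2, had an unadjusted p under 0.05 (0.00257, 0.00307 and 0.0323), as did 11.8% of the tested genes, and none passed the adjustment (adjusted p = 0.171, 0.184 and 0.365). Over all genes 28 passed. TYRO3 was 63.0-fold its control in experiment 1 and 27.8-fold in experiments 2 and 3 (adjusted p = 0.160). Experiment 1 also held the GFP library of lowest depth, and the part of TYRO3 level, depth or batch in these folds was not tested.

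The rest of the pathway was followed in lists of genes by role, in the comparison of the mean of the 3 TYRO3 groups with GFP. Over all tested genes 1.79% were called higher and 1.52% lower in it. The lists were chosen with earlier results of these data known, so their counts beside these shares are descriptions and no test of enrichment. Among 15 genes of adaptors and RAS 1 was called, and GAB2, a docking protein downstream of receptors, fell by 0.66 on the log2 scale (adjusted p = 0.0260). It was at 62.1 to 85.1 CPM in GFP and at 38.3 to 59.6 CPM in the TYRO3 libraries, so the groups did not overlap, as in the 5.21% of all genes that lay below. RASA1, SHC1 and SOS2 followed by p with log2 fold changes of 0.31, 0.14 and -0.19 and none was called. Of the kinase cascade and its scaffolds 13 of 15 genes could be tested and 0 were called. MAPK3, which encodes ERK1, had a log2 fold change of -0.34 and MAP2K2, which encodes MEK2, of -0.37. Their adjusted p-values were 0.0630 and 0.134, or 0.0370 and 0.0447 with a term for each experiment. PEBP1, a RAF inhibitor, had -0.24.

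Of 16 other feedback inhibitors 1 rose and 1 fell, against 1.79% and 1.52% of all genes. DUSP5, a nuclear phosphatase of ERK, rose by 0.71 on the log2 scale (adjusted p = 0.0460), and was above its control in 9 of 9 libraries. Its level was between 10.3 and 23.6 CPM in GFP and between 20.6 and 35.3 CPM with TYRO3, so the groups overlapped. DUSP16, which acts mainly on JNK and p38, fell by 1.00 (adjusted p = 0.0101), from 23.7 to 28.9 CPM down to 8.47 to 19.3 CPM. ERRFI1, an inhibitor of ERBB receptors, and DUSP7, a relative of DUSP6, had log2 fold changes of 0.41 (adjusted p = 0.0608) and 0.34 (0.0866), and passed the adjusted p with a term for each experiment (0.0364 and 0.0328) at folds under 1.5. The median of the list was 0.11.

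Of 8 ternary complex and ETS factors 0 were called. CIC, the repressor of ETV4 and ETV5 that ERK inactivates, had a log2 fold change of -0.46 (adjusted p = 0.0988) and SRF of 0.31 (0.154). With a term for each experiment both passed the adjusted p (0.00516 and 0.00751) at folds under 1.5. ELK1 and ETS1 had 0.15 and -0.18.

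Of 20 other output genes 4 rose and 0 fell, against 1.79% and 1.52% of all genes, and the median log2 fold change of the list was 0.38. CCND1, which encodes cyclin D1, rose by 0.82 on the log2 scale (adjusted p = 0.0101), from 444 to 534 CPM in GFP to 664 to 1124 CPM with TYRO3. CXCL8, the chemokine interleukin-8, rose by 1.59 (adjusted p = 0.0144), from 12.3 to 14.99 CPM to 19.1 to 101 CPM. The AP-1 subunits JUNB and FOSL2 rose by 0.79 (0.0301) and 0.71 (0.0360). In each of these 4 genes all 9 TYRO3 libraries lay above all 3 GFP libraries, as in 5.03% of all genes. EPHA2, an ephrin receptor, had 0.52 (adjusted p = 0.0316) and a fold under 1.5. In all, 7 of the 20 were higher and passed the adjusted p alone, against 2.71% of all genes. With a term for each experiment 5 of the 20 were called higher, against 526 of 15098 genes. Because this list was chosen with earlier results of these data known, these counts do not test whether output genes rose more often than others.

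These calls in the lists were lost without the control library of experiment 1, which leaves that experiment with no control. The comparison with GFP then rests on experiments 2 and 3, so it is no separate check from the fit of these experiments alone. Without this library GAB2, DUSP5, DUSP16, CCND1, CXCL8, JUNB and FOSL2 were all not called, at adjusted p-values of up to 0.244. The loss was not particular to these genes, as 1 gene over all genes was then called, against 500 with every library. CCND1, CXCL8 and DUSP16 were called in each of the other 11 fits with 1 library left out. In experiments 2 and 3 alone these 3 genes were not called (adjusted p = 0.274 for each), and with a term for each of these experiments they were (0.0236, 0.0121 and 0.0183). With no batch term 0 genes were called in any of the lists, and 19 over all genes. GAB2 also lost its call without the WT, ΔGS or ΔADAM library of experiment 1 or the GFP library of experiment 2. JUNB was called in 5 of 12 such fits (without GFP, ΔGS or ΔADAM of experiment 2, or WT or ΔGS of experiment 3). FOSL2 was called in 4 (without GFP or ΔADAM of experiment 2, or WT or ΔGS of experiment 3), and DUSP5 in 3 (without GFP of experiment 2, or WT or ΔGS of experiment 3).

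**Figure D4:**
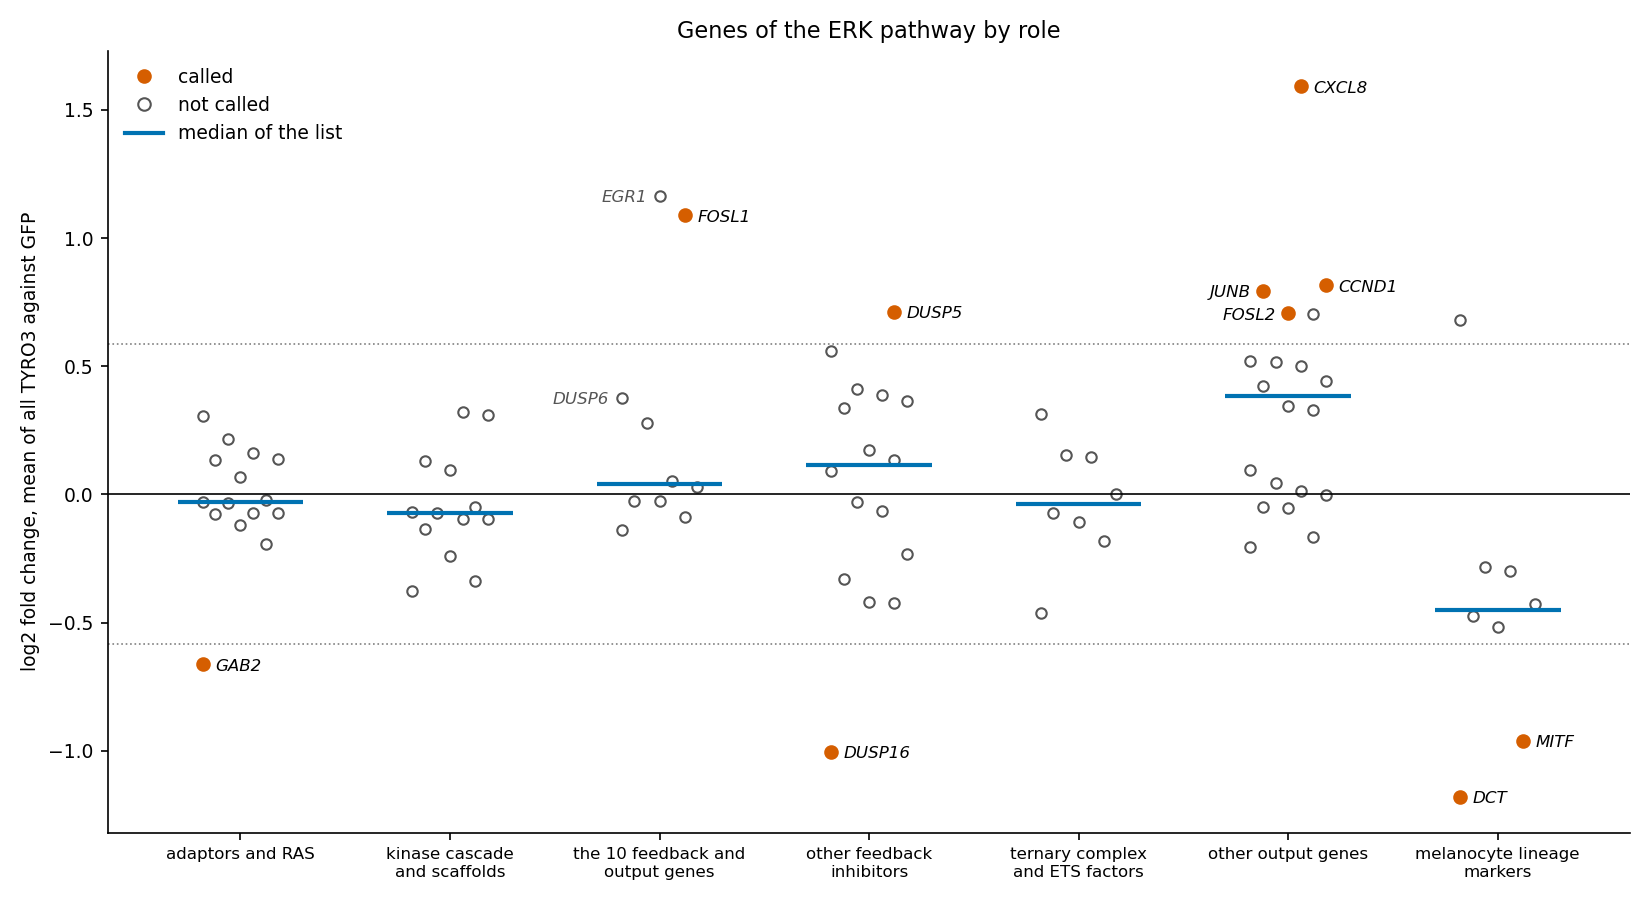
Log2 fold change of the mean of the 3 TYRO3 groups against GFP for each tested gene of the pathway lists and the melanocyte markers, with called genes in orange and named, other genes open, blue bars at the median of each list and dotted lines at 1.5-fold. The other output genes have a median of 0.38, while the adaptors, the kinase cascade and the 10 feedback and output genes have medians near 0. All lists were chosen with earlier results of these data known.

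Of 8 melanocyte lineage markers 0 rose and 2 fell in the same comparison, against 1.79% and 1.52% of all genes, and the median log2 fold change of the list was -0.45. MITF, the master regulator of the lineage, fell by 0.96 on the log2 scale (adjusted p = 0.0163), from 305 to 337 CPM in GFP to 94.97 to 254 CPM in the TYRO3 libraries. DCT, a melanin synthesis enzyme, fell by 1.18 (0.0205), from 335 to 444 CPM to 74.5 to 379.8 CPM. SOX10 and S100B had log2 fold changes of -0.30 and -0.43 and were not called. With a term for each experiment 5 of the 8 markers were lower and passed the adjusted p, SOX10 among them and S100B not. Over all genes 2390 of 15098 passed it in either direction, and of the markers again only MITF and DCT were called. TYRP1, another melanin synthesis enzyme, named after its values were seen, had the opposite sign at 0.68 (adjusted p = 0.363), with 0.251 to 1.33 TPM in GFP and 1.402 to 3.81 TPM in the TYRO3 libraries, and was called higher by limma when 0.1 was added to TPM before the log2. The calls of MITF and DCT were lost without the GFP library of experiment 1, the only control of that experiment, where 1 gene was called over all genes. That of DCT was also lost without the ΔADAM library of experiment 1 or the GFP library of experiment 3. In experiments 2 and 3 alone neither was called (adjusted p = 0.306 and 0.365), and with a term for each of these experiments MITF was (log2 fold change -0.67, adjusted p = 0.0365) and DCT was not (0.0730). Of the markers of other cell types 4 of 11 could be tested and 0 were called: CDH1, VWF, CD68 and PECAM1 had -0.53, -0.31, 0.07 and 0.02. The part of the lineage genes in the values of the ERK outputs was not tested.

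The genes whose pattern was most like that of DUSP6 were sought among 11091 genes with a mean of at least 5 CPM, by Pearson's r of log2 CPM centred within each experiment over the 12 libraries. They were ZIK1 (r = 0.987), PIM1 (0.983), LINC01667 (0.973), PRPF39 (0.973) and ZNF302 (0.973). Among the members r with DUSP6 was 0.80 for FOSL1, 0.72 for DUSP4, 0.72 for SPRY2, 0.62 for EGR1, 0.41 for ETV4, 0.29 for ETV5, 0.06 for SPRED1, -0.24 for SPRY4 and -0.51 for PHLDA1. By this measure FOSL1 was the closest member, at rank 855 of these genes. The points share the GFP libraries and their depth, and these values are a description.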

How the data were processed

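RNA was sequenced from 12 libraries of serum-starved WM-266-4 cells (polyA selection, stranded kit, paired ends). Per the labels and the study's methods, read quality was inspected in FastQC 0.11.9, PRINSEQ and Trimmomatic 0.33 did the trimming, and kallisto 0.46.0 quantified transcripts of Ensembl 96 (GRCh38). The deposited files give estimated counts and TPM for each of 188753 transcripts, before any batch correction by the authors. TPM divides by transcript length and sums to a fixed total.

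Estimated counts were summed per gene through GENCODE 29, which matched 169797 transcripts (18956 did not match and were left out), and rounded. Genes passed filterByExpr (minimum count 10, minimum total 15), and 15098 were tested with edgeR 4.0.16 (R 4.3.3): TMM, the quasi-likelihood test, 4 groups and a batch term for experiment 1 against experiments 2 and 3, as in the study's batch correction. P-values were adjusted by Benjamini-Hochberg over all tested genes, and intervals are at 95%. CPM are counts scaled to TMM library sizes, and log2 CPM use a prior count of 2. Alternatives used DESeq2 1.42.0, limma 3.58.1 on log2 TPM (pseudocounts 1 and 0.1), other filters, batch terms and samples. The scripts were tested on simulated data. Python 3.11.15 was used for tables and promoters.

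The labels mark a shared experiment by number, so same-numbered libraries pair. Deviations from group means correlated at 0.0384 to 0.529 in the 18 pairs of libraries of 1 experiment (median 0.294), and at -0.373 to 0.0534 in the other 36 (median -0.135). The deviations of each group sum to 0, so the 36 values are tied to the 18 and are not separate evidence of pairing. The GFP library of experiment 1 had the lowest values within its experiment, 0.0384 to 0.0823. The fit with a term for each experiment is given where it changes a call of a member. For the other lists it is given for the mean of the TYRO3 groups against GFP only.

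The 10 members and the other lists were chosen with earlier results of these data known, and 2 alternatives (a term for each of experiments 2 and 3 alone, and the difference between experiments) were added after seeing the data. Named genes are the members, TYRO3, up to 4 genes of each other list with the smallest p against GFP, any called gene up to 6 per list, and the 5 genes most like DUSP6. A gene that this rule names is not reported here. Promoter sequences are from RefSeq. Depth limits EGR1 most.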

Additional observations from a re-analysis of the deposited data

How the results depend on the processing

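The number of the 10 genes called moved as follows. For WT against GFP (0 called) it was 2 with DESeq2 and 2 without a filter on low counts. For ΔGS (0 called) it was 2 with DESeq2, 2 without a filter and 2 with a replicate block, the term for each experiment. For ΔADAM (0 called) it was 1 with DESeq2, 2 without a filter, 1 with the replicate block and 0 to 1 with 1 library left out (1 without ΔADAM of experiment 2 or ΔGS of experiment 3). For the mean of the TYRO3 groups (1 called) it was 2 with DESeq2, 2 without a filter, 2 with the replicate block, 2 with no threshold on the fold, 0 with no batch term, 0 in experiments 2 and 3 alone, 0 there with a replicate block (chosen after seeing the data), and 0 to 2 with 1 library left out (2 without ΔGS of experiment 3). The replicate block changed no other call of the members. The causes were not tested, beyond the smaller number of libraries in the fits that leave some out.

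No member changed direction where its value was called or exceeded its standard error. Of the members' log2 fold changes under the alternatives 1406 kept their side of the threshold. A further 20 came to pass it and 8 no longer passed it. Only 1 of the 60 member values was called in the main fit, FOSL1 for the mean of the TYRO3 groups. All 8 losses therefore fall on this call, and the other values had none to lose. Of the log2 fold changes of the other named genes 623 kept their side and 70 no longer passed. Genes called over all genes for the mean of the TYRO3 groups (500) were 752 with DESeq2 and 857 with the replicate block, and ranged from 1 to 933 over 12 settings with the same thresholds and no single library left out and from 1 to 610 with 1 left out. For WT (6), ΔGS (69) and ΔADAM (168) DESeq2 called 375, 607 and 672 and the replicate block 355, 706 and 785. Depth limits EGR1, with 9 counts in the GFP library of experiment 1.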
